A study of Drosophila melanogaster with 6 samples.

Results

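The genes described here are 268 protein-coding genes of Drosophila melanogaster that were abundant at stage 5 of embryogenesis and that the deposited table listed by a CG number alone, the annotation identifier a fly gene keeps until it receives a name. They were taken from 16596 rows, of which 6701 held a single gene with such a number. A gene was kept where its level was at least 100 FPKM (fragments mapped to a transcript, scaled by its length and by the size of the library) in zldZnF2 embryos and in w1118 embryos, and where the ratio of the values lay between 1/3 and 3. Of 270 unnamed genes past both level limits, 2 failed the limit on the ratio. The genes CG13711, CG14915 and CG16813 were left out by name, and 54 rows that join several genes under 1 locus, at least 1 of them with a CG number, were left out although they passed the level limits. The genes were thus chosen by their levels and ratio in these samples, which are given below as a description, with no test.

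Polyadenylated RNA was sequenced from hand-sorted stage 5 embryos. The zldZnF2 group was 3 samples of embryos laid by females homozygous for a point mutation in the second zinc finger of Zelda, and the control group was 3 samples of w1118 embryos, which received wild-type maternal zld. The zldZnF2 embryos thus received zld RNA that carries the mutation from their mothers, and the labels give the same food and temperature for flies of both groups. The authors' table holds 1 FPKM per genotype, computed over the 3 samples together, so no value per sample, no spread between replicates and no depth could be given, and no difference below was tested.

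All 2716 rows on chromosomes X (2535), 4 (110) and Y (71) were listed at 0 in both genotypes, zld on the X among them. These zeros were not read as absence of RNA, the targeted gene could not serve as a check of the labels, and the 268 genes lay on 2L (57), 2R (68), 3L (77) and 3R (66). The stage was checked with zygotic genes of the cellularizing blastoderm. All 14 of these found on the 4 arms were above 10 FPKM. They ran from 72.9 to 1927 FPKM in zldZnF2 embryos and from 39.5 to 1919 FPKM in w1118 embryos. The sums were 4937 and 4900.03 FPKM, but single genes differed. Lower in zldZnF2 embryos were bnk (872 against 1398 FPKM), hb and tll. The others were higher there, among them term (775 against 458 FPKM) and ftz (211 against 109 FPKM), with slam nearly equal. Of 8 eggshell genes, which mark ovarian tissue, none exceeded 1.14 FPKM in zldZnF2 embryos or 1.2 FPKM in w1118 embryos. The 4 muscle genes found on these arms summed to 2.28 FPKM in zldZnF2 embryos and 11.9 FPKM in w1118 embryos, and 4 digestive protease genes to 0.0610 and 4.84 FPKM. The part of such other cells in the differences below was not tested. A set of 9 maternal mRNAs summed to 293 FPKM in zldZnF2 embryos against 582 FPKM in w1118 embryos. Of these, 8 were lower in zldZnF2 embryos, and vas was higher (12.4 against 5.74 FPKM). The largest difference in FPKM was that of smg (79.7 against 239 FPKM), and the lowest ratio was that of bcd (9.22 against 37.8 FPKM).

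At stage 5 the syncytial blastoderm forms cell membranes around its nuclei while control of development passes from RNA loaded by the mother to RNA made by the embryo. Zelda is the pioneer transcription factor that opens and activates much of the zygotic genome at this time, and zygotic products help to clear maternal RNA. The RNA of such an embryo is a mixture. Housekeeping messages supplied by the mother, such as those for translation, splicing and respiration, lie beside short-lived messages that the embryo itself has just begun to make.

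The label "unnamed" held for the table but no longer for the current annotation. All 268 genes were matched to a FlyBase identifier, and for 157 the start and end in the table were those of the annotation. In the RefSeq gene table and Ensembl release 115, 115 of the 268 genes carried a name and 153 still had a CG number, 1 of them a new one (CG45093, now CG46385). From the current names, 61 genes were placed in 9 groups by role, 54 carried a name outside these groups, and the products of the remaining 153 were not annotated in the sources used here.

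The levels spanned a wide range. In zldZnF2 embryos the lowest of the 268 genes was at 100.1 FPKM, the median at 175 FPKM and the highest at 5627 FPKM. In w1118 embryos the corresponding values were 101, 183 and 3055 FPKM. The genes together held 10% of the FPKM summed over all rows in zldZnF2 embryos and 9.26% in w1118 embryos, or 77670 and 73293 FPKM. By rank among rows above 0, the lowest of them stood at place 1155 of 9789 in zldZnF2 embryos and at place 1238 of 9589 in w1118 embryos. Within the same limits lay 723 genes that already had a name, with medians of 229.9 and 238 FPKM. Of the 100 rows with the highest mean level, 5 were unnamed genes and 84 were such named genes, so the very top of the embryo's RNA was mostly named.

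**Figure D1:**
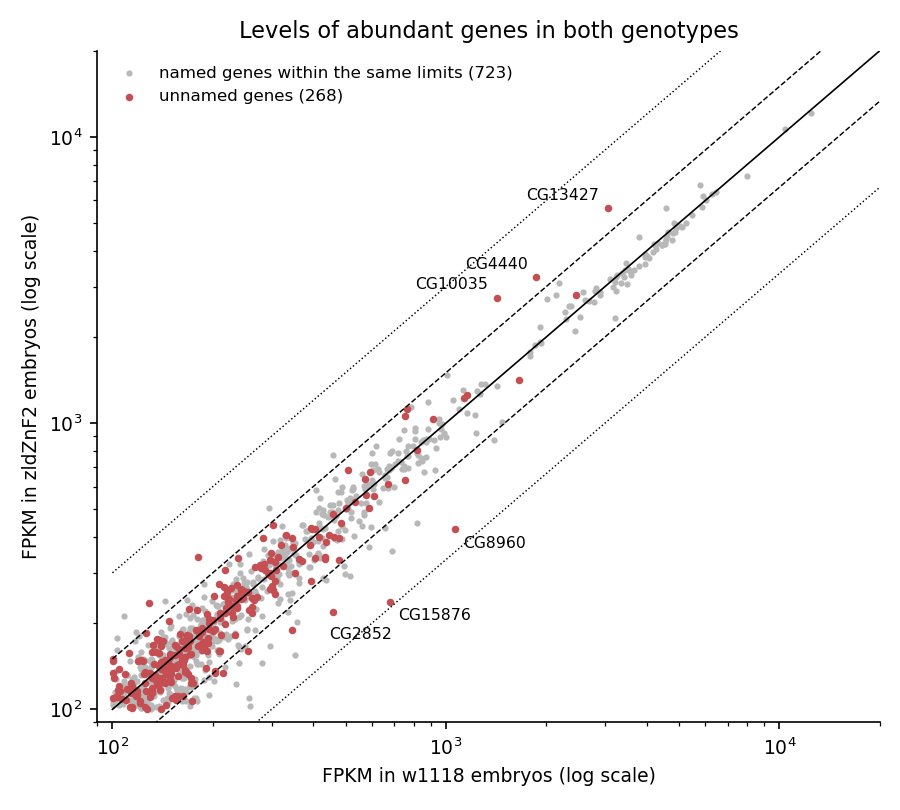
FPKM in zldZnF2 embryos (vertical axis) against FPKM in w1118 embryos (horizontal axis), both on log scales, for the 268 unnamed genes (red) and the 723 named genes within the same limits (grey); each point is 1 gene, the solid line marks equal values, the dashed lines a 1.5-fold and the dotted lines a 3-fold difference. Most points of both kinds lie between the dashed lines, CG13427, CG4440 and CG10035 lie above them and CG8960, CG15876 and CG2852 below.

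The level limit lay in a dense range of values. Just inside the level limit, CG9328 was at 100.1 FPKM in zldZnF2 embryos and 139.7 FPKM in w1118 embryos, and CG4502 at 100.4 and 127 FPKM. Just outside it, CG16753 was at 125 and 99.8 FPKM, and CG17508 at 99.6 and 149 FPKM. The limit on the ratio lay in a sparse range. CG15876 (ratio of zldZnF2 to w1118 of 0.350) and CG8960 (0.400) were inside it, whereas CG4570, at 117 FPKM in zldZnF2 embryos against 516 FPKM in w1118 embryos, and CG43725, at 171 against 1009.8 FPKM, were outside.

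A few genes carried much of the sum. The 10 genes with the highest mean held 27.7% of the summed FPKM of the 268 genes in zldZnF2 embryos and 20.7% in w1118 embryos. The 4 highest, CG13427, CG34214, CG4440 and CG10035, accounted for 14419 FPKM in zldZnF2 embryos and 8790.2 FPKM in w1118 embryos. Without these 4 genes the sums were 63251 and 64503 FPKM, so the higher total in zldZnF2 embryos rested on them.

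CG13427 was the most abundant of the 268 genes. It is a gene of 1 exon on 2R (minus strand, 20538877 to 20539316 of dm6), with a transcript of 440 nucleotides and a protein of 105 amino acids. It was at 5627 FPKM in zldZnF2 embryos and 3055 FPKM in w1118 embryos (log2 ratio of zldZnF2 over w1118 of 0.88), and its rank among all rows was 12 in zldZnF2 embryos and 65 in w1118 embryos. CG4440, on 2L (plus strand, 16329925 to 16330521), encodes a protein of 79 amino acids. It was at 3244 FPKM in zldZnF2 embryos and 1865 FPKM in w1118 embryos (log2 ratio 0.80). CG10035, on 3R (minus strand, 12380869 to 12382691), has 2 exons and a protein of 286 amino acids. It was at 2741 FPKM in zldZnF2 embryos and 1419 FPKM in w1118 embryos, and its log2 ratio of 0.95 was the highest of the 268 genes. None of these 3 genes shares exon sequence with another annotated gene.

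The other abundant genes lay closer to equal values. CG34214, on 2R (minus strand, 24665427 to 24666022), was at 2807 FPKM in zldZnF2 embryos and 2451 FPKM in w1118 embryos (log2 ratio 0.20). Its exons overlap a gene on the opposite strand, and the library kit does not mark strand, so reads from the overlapping stretch may be shared between these genes. The extent of the overlap was not measured. CG14317, now bard, was the only gene of the 10 highest with the lower value in zldZnF2 embryos, at 1417 FPKM against 1657 FPKM in w1118 embryos. CG34137, now dunk, a regulator of myosin during cellularization, was at 1256 FPKM in zldZnF2 embryos and 1160.1 FPKM in w1118 embryos. The ratio of zldZnF2 to w1118 was 1.15 for CG34214, 0.855 for bard and 1.08 for dunk.

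The remaining 4 of the 10 highest were all still unnamed. CG1943, whose exons overlap a gene on the opposite strand so that its reads may be shared, was at 1228.5 FPKM in zldZnF2 embryos and 1132 FPKM in w1118 embryos. CG13551 was at 1030.4 and 912 FPKM. Larger differences were seen for the intronless genes CG7271 (1121 FPKM in zldZnF2 embryos and 765 FPKM in w1118 embryos) and CG43184 (1061 and 752 FPKM). Of the 10 highest genes, 4 were intronless and 6 encoded a protein under 150 amino acids.

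**Figure D2:**
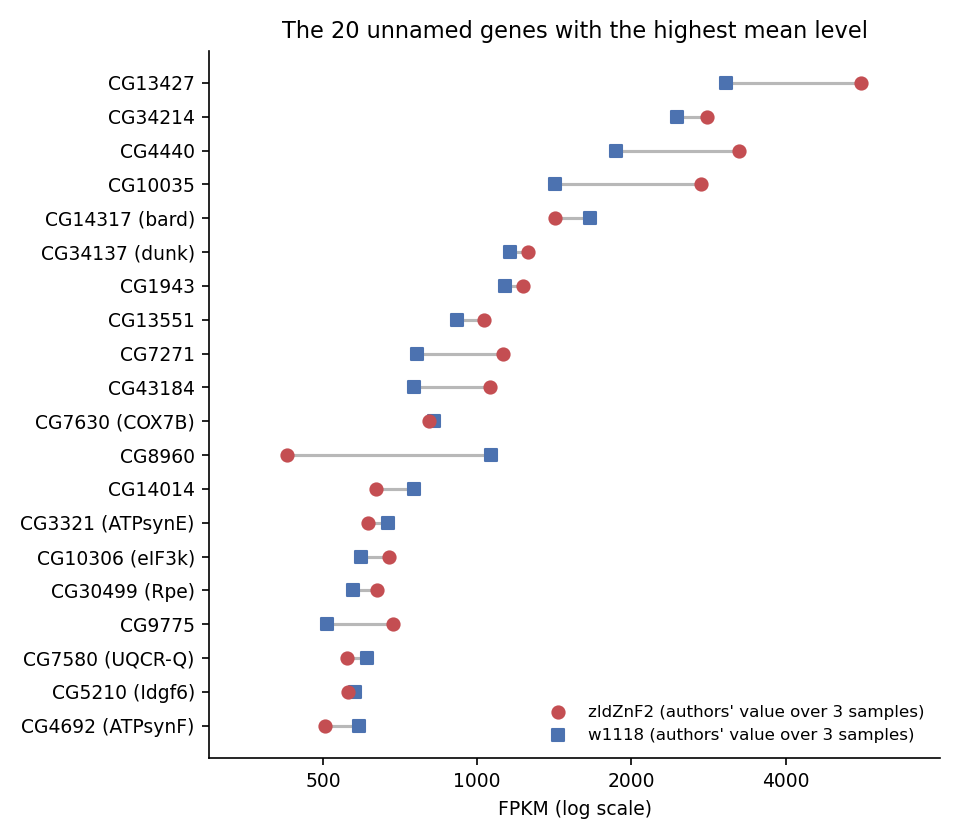
FPKM on a log scale in zldZnF2 embryos (red circles) and w1118 embryos (blue squares) for the 20 unnamed genes with the highest mean level, 1 gene per line, each value being the authors' value over 3 samples. The circle lies clearly to the right of the square for CG13427, CG4440 and CG10035 and clearly to its left for CG8960, at 426 against 1064 FPKM.

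Across the 268 genes the genotypes gave nearly equal levels. The median log2 ratio was -0.01, the central 50% of genes lay between -0.17 and 0.12, and 125 genes were above 0 and 143 below. The median took the other sign, 0.02, when the genotypes were scaled to the same summed FPKM. In 123 genes (45.9%) the values differed by under 10%, as against 361 of the 723 named genes (49.9%) and 83.1% of 65 cytosolic ribosomal protein genes. The median log2 ratio of the named genes was -0.02, and that of all 5524 loci at 1 FPKM or more in both genotypes was -0.01. Since the rule removed ratios past 3-fold and required 100 FPKM in both genotypes, this narrow range is in part its product.

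The spread of ratios narrowed with level over unnamed genes as a whole. Among unnamed genes above 0 in both genotypes, with no limit on the ratio, 44.9% of 820 with a mean from 1 to 10 FPKM were over 1.5-fold higher in zldZnF2 embryos and 21.8% over 1.5-fold lower. From 10 to 100 FPKM the shares were 15.3% and 20.1% of 1095 genes. From 100 FPKM upwards they were 2.53% and 6.65% of 316 genes. Over all loci the shares in this highest range were 1.91% and 6.31% of 1205. Counting error is larger for low values, and its part in this narrowing was not tested.

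**Figure D3:**
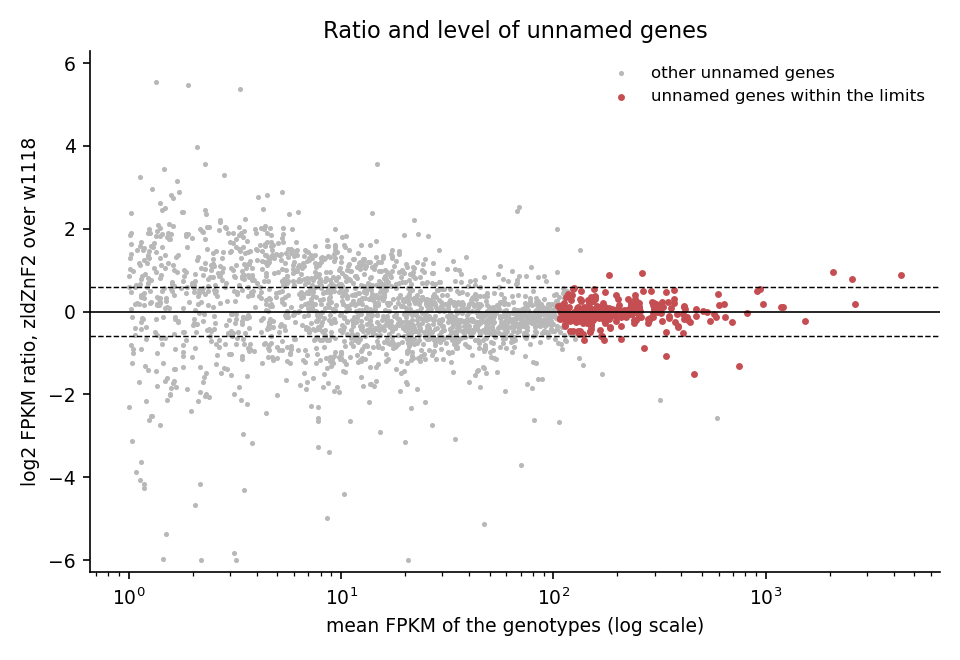
Log2 ratio of FPKM, zldZnF2 over w1118 (vertical axis), against the mean FPKM of the genotypes on a log scale (horizontal axis) for the 268 genes (red) and 1963 other unnamed genes with a mean of at least 1 FPKM (grey); each point is 1 gene, dashed lines mark a 1.5-fold difference, and 3 genes past a log2 ratio of 6 in size are drawn at the edge. The points spread widely at low levels and gather near 0 from about 100 FPKM upwards.

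Among the 268 genes, 5 were over 1.5-fold higher in zldZnF2 embryos (background 1.29% of the 1083 loci at 100 FPKM or more in both genotypes, and 20.4% of the 5524 loci at 1 FPKM or more) and 8 were over 1.5-fold lower (background 3.88% and 17%). Of the 723 named genes, 7 were higher (0.968%) and 28 lower (3.87%). Over 2-fold, none of the 268 genes was higher (background 0.185%) and 3 were lower (background 0.739%). The rule used this contrast, so the counts describe the genes it left in.

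The 5 higher genes were CG10035, CG13427 and CG4440, described above, with CG45186 and CG12420. CG45186 is now Svil, a fly relative of supervillin, a protein of the villin family that ties actin to membranes. Its protein of 4526 amino acids was the longest of the set, spread over 19 exons on 3L (plus strand, 2377655 to 2499226). Svil was at 341 FPKM in zldZnF2 embryos and 180.2 FPKM in w1118 embryos (log2 ratio 0.92), but 6 rows of the table shared its locus. CG12420, on 3R (plus strand, 10222698 to 10223745), was at 235 FPKM in zldZnF2 embryos and 128 FPKM in w1118 embryos (log2 ratio 0.87), and its exons overlap a gene on the opposite strand. The next gene, CG11652, now Dph1, which acts in making the diphthamide residue of elongation factor 2, was at 149.7 FPKM against 101 FPKM in w1118 embryos (log2 ratio 0.57).

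The lower genes were led by 3 that still have no name. CG15876, an intronless gene on 3L (minus strand, 4694205 to 4694845), was at 238 FPKM in zldZnF2 embryos and 679 FPKM in w1118 embryos (log2 ratio -1.51), and 12 rows of the table shared its locus. CG8960, also on 3L (plus strand, 2197013 to 2198089), was at 426 FPKM in zldZnF2 embryos and 1064 FPKM in w1118 embryos (log2 ratio -1.32). CG2852, on 2R (minus strand, 22644646 to 22646344), was at 219 FPKM in zldZnF2 embryos and 460.1 FPKM in w1118 embryos (log2 ratio -1.07). The proteins of these genes have 138 amino acids for CG15876, 114 for CG8960 and 205 for CG2852.

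The other 5 lower genes had log2 ratios from -0.87 to -0.60. CG14715, on 3R (plus strand, 11674221 to 11674923), was at 189.9 FPKM in zldZnF2 embryos and 347 FPKM in w1118 embryos. CG4572, an intronless gene on 3R (minus strand, 19862517 to 19864393), was at 107 and 173 FPKM. Both have exons that overlap a gene on the opposite strand. CG45093, now CG46385, was at 134 FPKM in zldZnF2 embryos against 214 FPKM in w1118 embryos, and CG4911 at 134 against 203 FPKM. The only gene among the 8 with a name in the sources used here was CG6439, now Idh3b, a subunit of the mitochondrial isocitrate dehydrogenase of the citric acid cycle. It was at 159.6 FPKM in zldZnF2 embryos and 255 FPKM in w1118 embryos (log2 ratio -0.67).

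The current names showed many parts of large assemblies among the 268 genes. The groups below were made from these names after the values had been seen. In none of the 9 groups did the median log2 ratio exceed 0.16 in size, beside the median of -0.01 over all 268 genes and over all loci at 1 FPKM or more. Over all loci at 100 FPKM or more in both genotypes, 489 log2 ratios were above 0 and 594 below. Of the 61 genes in these groups 1, Idh3b, was past 1.5-fold. Among the 1083 loci at 100 FPKM or more in both genotypes, 1.29% were over 1.5-fold higher and 3.88% over 1.5-fold lower. The rule left out subunits of the same assemblies under its level limit, some of them past 1.5-fold, such as EMC1 (log2 ratio -0.68) and UQCR-C2 (1.02). The count thus describes the genes the rule left in.

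**Figure D4:**
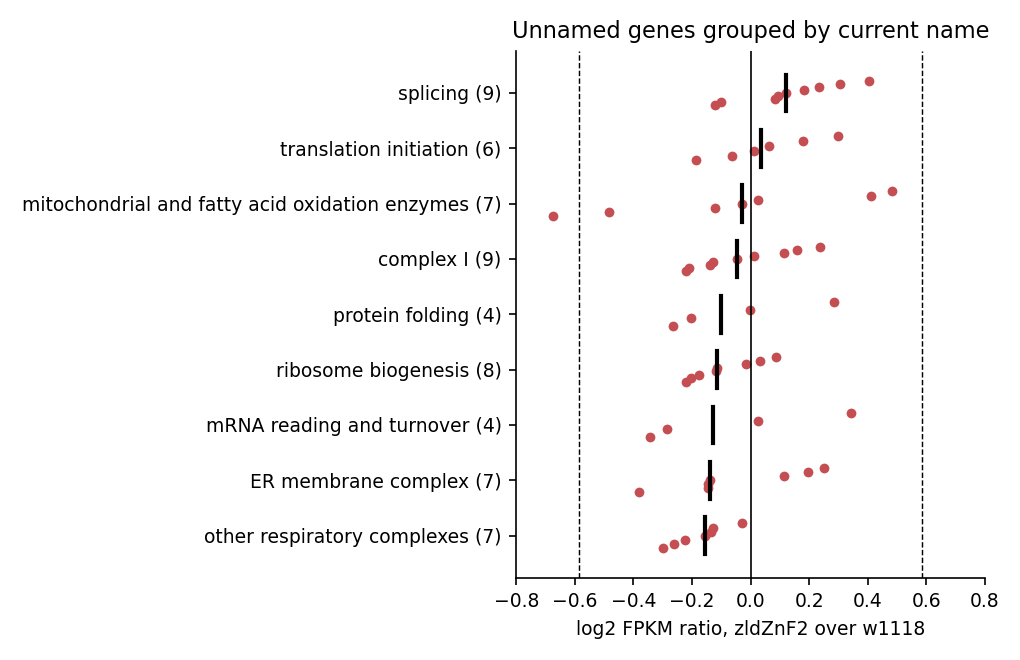
Log2 ratio of FPKM, zldZnF2 over w1118 (horizontal axis), for the 61 genes in 9 role groups; each point is 1 gene, the thick bar is the group's median, the number of genes stands beside the group's name, and dashed lines mark a 1.5-fold difference. All 7 genes of the other respiratory complexes lie below 0, and 7 of 9 splicing genes lie above it.

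The ER membrane complex, which inserts membrane proteins into the endoplasmic reticulum, contributed 7 genes. All 10 genes with an EMC symbol in the annotation had been listed by a CG number. EMC4 was the most abundant, at 428 FPKM in zldZnF2 embryos and 395 FPKM in w1118 embryos. EMC5 was at 159.9 and 208 FPKM, EMC7 at 156 and 172 FPKM, and EMC8-9 at 148 and 163 FPKM. EMC6 was at 147 FPKM in zldZnF2 embryos and 124 FPKM in w1118 embryos, and EMC10 at 102 and 113 FPKM. Exons of 6 of the 7 genes, all but EMC10, overlap a gene on the opposite strand, so their reads may be shared.

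EMC2 is encoded by a pair of paralogous genes, and the sharing of reads between them is not known. EMC2B was at 120.3 FPKM in zldZnF2 embryos and 105 FPKM in w1118 embryos, whereas EMC2A, outside the limits, was at 36.8 and 53.1 FPKM. The others left out were EMC1 (86.9 FPKM in zldZnF2 embryos and 139.5 FPKM in w1118 embryos) and EMC3 (77.1 and 108 FPKM), each of which missed the limit in zldZnF2 embryos only. Over the 10 subunits the summed FPKM was 1462 in zldZnF2 embryos and 1582 in w1118 embryos, with 3 subunits above 0 in log2 ratio and 7 below.

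Splicing factors formed a group of 9 genes with a median log2 ratio of 0.12, of which 7 were above 0. Of these, 5 were subunits of SF3, the part of the U2 particle that recognizes the branch point. Phf5a was at 328 FPKM in zldZnF2 embryos and 308 FPKM in w1118 embryos, Sf3b5 at 322 and 284 FPKM, and Sf3b6 at 314 and 267 FPKM. Sf3a2 was at 222 and 179 FPKM and had the highest log2 ratio of SF3, 0.31. Sf3b2 was at 117 FPKM in zldZnF2 embryos and 111 FPKM in w1118 embryos. The large subunits Sf3b1 (93.6 and 95.0 FPKM) and Sf3a1 (89.4 and 89.1 FPKM) had also been listed without a name and were just under the level limit in both genotypes. Of these 7 subunits, which were found by symbol and are not the whole complex, 6 were above 0 in log2 ratio, and all 7 when the genotypes were scaled to the same summed FPKM.

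The other splicing genes differed in both directions. Prp39, a protein of the U1 particle in yeast, was at 139 FPKM in zldZnF2 embryos and 105 FPKM in w1118 embryos (log2 ratio 0.41), the highest ratio of the group. Spf30, which acts in assembly of the spliceosome, was at 182 and 167 FPKM. Dhx15, a helicase that takes spliceosomes apart, was at 126 FPKM in zldZnF2 embryos and 135 FPKM in w1118 embryos, and Srrm234, a relative of the SR-repeat matrix proteins, at 133 and 145 FPKM. Exons of 5 of the 9 splicing genes, Prp39 and Sf3a2 among them, overlap a gene on the opposite strand, so their reads may be shared.

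Translation initiation was represented by 6 abundant genes with a median log2 ratio of 0.04. Of the eIF3 complex, the scaffold that loads the small ribosomal subunit, 12 genes found by symbol were at 1 FPKM or more on the 4 arms. Of these, 8 already had a name, 3 were within the set, and eIF3f2 was at 2.67 FPKM in zldZnF2 embryos and 4.26 FPKM in w1118 embryos. The 3 genes of the set were eIF3k (673 FPKM in zldZnF2 embryos and 593 FPKM in w1118 embryos), eIF3f1 (506 and 502 FPKM) and eIF3l (479.7 and 459 FPKM). They lay among the named subunits, which, apart from eIF3j (27.5 and 15.4 FPKM), ran from eIF3d1 (429 and 422 FPKM) to eIF3i (937 and 809 FPKM). In log2 ratio 11 of the 12 were above 0, eIF3f2 being the exception, against 2698 of all 5524 loci at 1 FPKM or more in both genotypes.

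Outside eIF3, the start-codon factor eIF1 was at 408 FPKM in zldZnF2 embryos and 331 FPKM in w1118 embryos, the largest difference of the group (log2 ratio 0.30). eIF2A was at 399.6 and 417 FPKM. Paip1, a partner of the poly(A)-binding protein, was at 166 FPKM in zldZnF2 embryos and 189 FPKM in w1118 embryos.

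**Figure D5:**
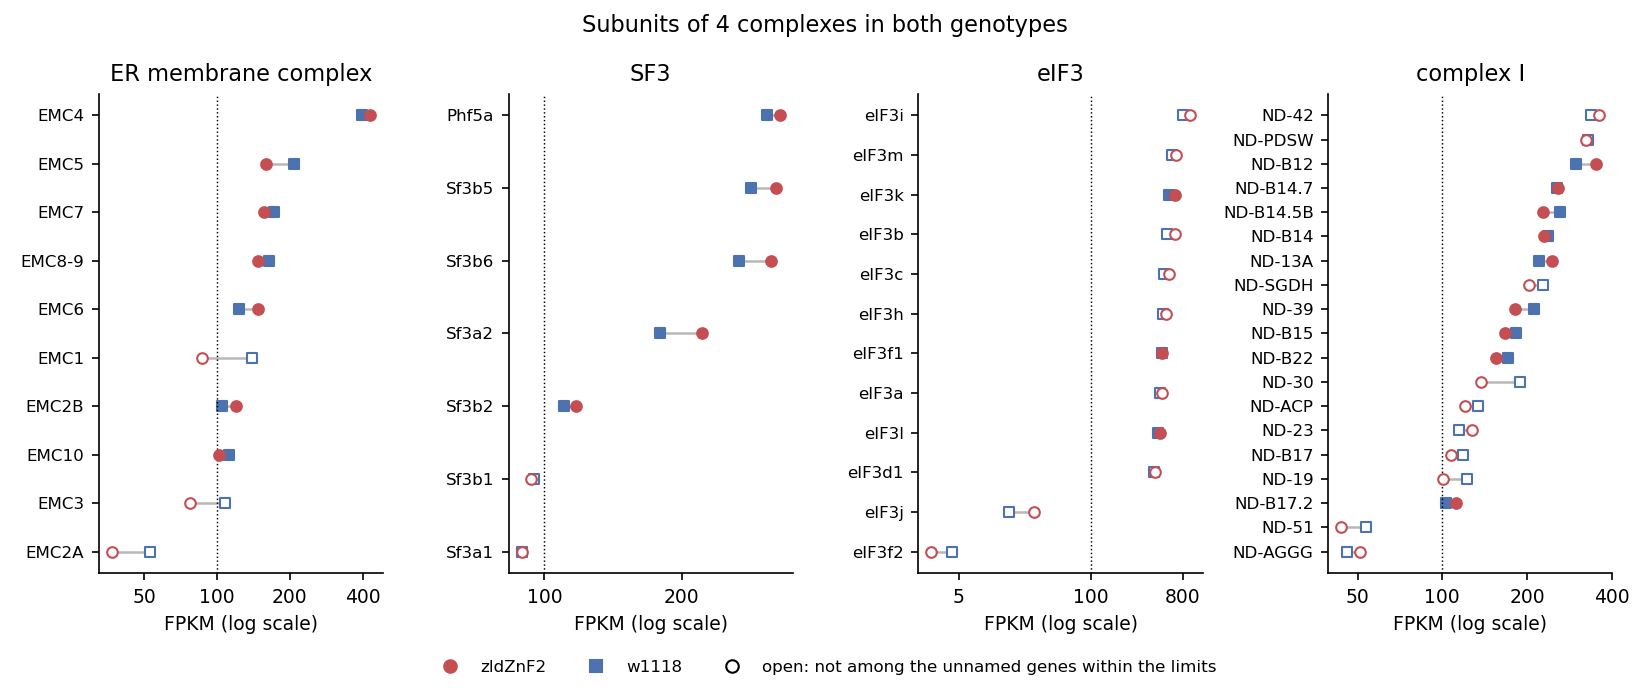
FPKM on log scales in zldZnF2 embryos (red circles) and w1118 embryos (blue squares) for the subunits found by symbol, at 1 FPKM or more on the 4 arms, of the ER membrane complex, SF3, eIF3 and respiratory complex I, ordered by mean level; filled symbols are the unnamed genes within the limits, open symbols are subunits outside the set, and the dotted line is the level limit of 100 FPKM. Circle and square lie close together for most subunits, and the open symbols of the ER membrane complex and of SF3 lie left of the dotted line in zldZnF2 embryos.

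Respiratory complex I, which passes electrons from NADH to ubiquinone, contributed 9 genes. By symbol 35 nuclear genes of the complex were found, which need not be all of them. Of these, 6 were paralogs marked by an L in the name and 9 lay on the X or chromosome 4, where the table lists 0. On the 4 arms 19 were at 1 FPKM or more, 8 of them already named, and ND-B8 was at 0.0831 FPKM in zldZnF2 embryos and listed at 0 in w1118 embryos. The 9 genes of the set ran from ND-B12 (352 FPKM in zldZnF2 embryos and 299 FPKM in w1118 embryos) to ND-B17.2 (112 and 103 FPKM). Their log2 ratios lay between -0.22 (ND-39) and 0.24 (ND-B12), with a median of -0.05. Exons of 5 of these 9 genes, ND-B12 among them, overlap a gene on the opposite strand, so their reads may be shared. Over the 19 genes, 7 were above 0 and 12 below, or 8 and 11 when scaled to the same sum.

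The genes of the later respiratory complexes within the set all had the lower value in zldZnF2 embryos, by small amounts. The 7 genes had a median log2 ratio of -0.16 and stayed below 0 under scaling to the same sum. COX7B, of cytochrome c oxidase, was the most abundant, at 806 FPKM in zldZnF2 embryos and 822 FPKM in w1118 embryos. ATPsynE and ATPsynF, of ATP synthase, were at 611 and 504 FPKM in zldZnF2 embryos, against 670.2 and 588 FPKM in w1118 embryos. UQCR-Q, Cyt-c1 and UQCR-C1, of complex III, were at 556, 398 and 146 FPKM in zldZnF2 embryos, against 608, 477 and 163 FPKM in w1118 embryos. COX7A had the lowest ratio of these genes, at 135 FPKM in zldZnF2 embryos and 166 FPKM in w1118 embryos (log2 ratio -0.30). The subunits outside the set that were found by symbol lay on both sides. Of 12 at 1 FPKM or more on the 4 arms, 5 were above 0 in log2 ratio and 7 below, or 5 and 14 with the 7 genes of the set. Those above 0 were COX8 (574 FPKM in zldZnF2 embryos and 483 FPKM in w1118 embryos), ATPsynO (788 and 719 FPKM), ATPsynG (829.9 and 769 FPKM), COX7C (708 and 677 FPKM) and UQCR-C2 (47.9 and 23.7 FPKM).

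Enzymes of mitochondria and of fatty acid oxidation showed the widest range of any group. Mcad, an acyl-CoA dehydrogenase for medium chains, was at 396 FPKM in zldZnF2 embryos and 283 FPKM in w1118 embryos (log2 ratio 0.48). Echs1, the enoyl-CoA hydratase that acts in the next step of the same pathway, was at 281 FPKM in zldZnF2 embryos and 393 FPKM in w1118 embryos (log2 ratio -0.48). CROT, a carnitine acyltransferase, was at 134 and 101 FPKM (log2 ratio 0.41). Etfb, which takes electrons from these dehydrogenases, was at 292 FPKM in zldZnF2 embryos and 298 FPKM in w1118 embryos, and Acadvl, the dehydrogenase for very long chains, at 216 and 212 FPKM. BckdhB, of the branched-chain ketoacid dehydrogenase, was at 152 and 165 FPKM, and the seventh gene was Idh3b. Exons of Mcad, Echs1 and CROT overlap a gene on the opposite strand, so their reads may be shared, and 10 rows of the table shared the locus of Mcad.

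Genes of ribosome biogenesis had a median log2 ratio of -0.12, with 6 of 8 below 0. They included the nucleolar factors Noc1 (105 FPKM in zldZnF2 embryos and 121 FPKM in w1118 embryos) and Noc2 (204 and 200.1 FPKM). Gar1 (172 FPKM in zldZnF2 embryos and 187 FPKM in w1118 embryos) and Nop10 (124 and 125 FPKM) belong to the H/ACA particle that modifies ribosomal RNA. LTV1 (189 and 177 FPKM) and Tsr1 (111 and 129 FPKM) act in maturation of the small subunit. Rrp5 and Polr1E, a processing factor and a subunit of RNA polymerase I, were at 116 and 132 FPKM in zldZnF2 embryos, against 126 and 149.6 FPKM in w1118 embryos.

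Factors that read or remove mRNA formed a group of 4. PAN3, of a deadenylase, was at 252 FPKM in zldZnF2 embryos and 307 FPKM in w1118 embryos. Ythdf, a reader of methylated adenosine, was at 133 and 168 FPKM, and Tailor, a uridylyltransferase, at 174 and 170.5 FPKM. Dcps, the scavenger that hydrolyses the cap left after decay, was at 168 FPKM in zldZnF2 embryos and 133 FPKM in w1118 embryos. Among protein folding genes, the prefoldin subunits Pfdn5 (223 and 256 FPKM) and Pfdn1 (159.7 and 192 FPKM) had the lower value in zldZnF2 embryos. The prefoldin subunits found by symbol outside the set were Pfdn2 (346 and 352 FPKM), Pfdn4 (99.6 and 87.9 FPKM) and Pfdn6 (74.1 and 71.9 FPKM). Of the 5 found, which need not be the whole complex, 2 were above 0 in log2 ratio, or 3 when scaled to the same sum. Of the other folding genes, p23, a partner of Hsp90, was at 116 FPKM in both, and the mitochondrial protease ClpP was at 148 FPKM in zldZnF2 embryos and 121 FPKM in w1118 embryos.

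Among the 54 named genes outside these groups, several enzymes were abundant and close to equal. Rpe, of the pentose phosphate pathway, was at 638 FPKM in zldZnF2 embryos and 572 FPKM in w1118 embryos, and Sms, spermine synthase, at 529.5 and 533 FPKM. Idgf6, of the imaginal disc growth factors, was at 559 and 578 FPKM. Larger differences were seen, among others, for CNBP, a zinc-finger protein that binds nucleic acids (340.1 FPKM in zldZnF2 embryos and 434 FPKM in w1118 embryos), and for Arl5, a small GTPase of the Golgi (111 and 163 FPKM). PIG-B, a mannosyltransferase of the GPI anchor pathway (109 and 151 FPKM), was lower likewise. BuGZ, a spindle assembly factor, was higher, at 223 FPKM in zldZnF2 embryos and 170.2 FPKM in w1118 embryos.

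The rule set no limit on the structure of the genes. Structure could enter it through the length that FPKM divides by and through the omission of rows that join several genes. The median transcript of the 268 genes was 1277.5 nucleotides long, against 1689 for the named genes within the same limits and 1872 for all loci at 1 FPKM or more. The median protein had 280.5 amino acids, against 346 and 448. A protein under 150 amino acids was encoded by 62 genes (23.1%), against 15% of the named genes and 8.23% of loci at 1 FPKM or more. The shortest were CG45099 (34 amino acids), CG45100 (38), CG32267 (49) and CG34200 (52), and the longest were Svil (4526) and Helz (2103). The 4 short-protein genes were at nearly equal levels in the genotypes, with log2 ratios from -0.03 to 0.21. Exons of CG45099 and CG45100 overlap another gene on the same strand, and those of CG34200 a gene on the opposite strand, so their reads may be shared.

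Intronless genes made up 38 of the 268 (14.2%), against 8.86% of named genes, 12% of unnamed genes from 1 to 100 FPKM and 11.9% of loci at 1 FPKM or more. Among genes that remain unnamed they were 27 of 153 (17.6%), and among those named since, 11 of 115 (9.57%). Their ratios were spread more widely, with a median size of the log2 ratio of 0.22 against 0.14 for the 230 spliced genes, while their median ratio was the same (-0.01 in both). At a mean of 800 FPKM or more, 4 of 11 genes were intronless (36.4%), against 4.96% of the 122 named genes in that range. In that range the median size of the log2 ratio was 0.23 for the 11 genes and 0.07 for the named genes. Of the 11 genes 9 were above 0, against 50 of the 122 named genes.

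Overlap with other genes was common. Exons of 104 genes (38.8%) overlap a gene on the opposite strand, against 35.4% of named genes within the limits and 40.7% of loci at 1 FPKM or more, and 120 genes shared a locus with another row. Reads of the 104 genes may be shared, also where this is not stated beside their values, as for Rpe and Arl5. The median log2 ratio was 0.01 for the 104 genes and -0.03 for the 158 without any overlap.

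Some of the 268 genes belonged to classes of maternal mRNA decay. In an earlier published classification, class IV holds mRNAs removed late through zygotic products, and classes II and III hold those removed by maternal factors. Class IV held 17 of the genes (6.34%), against 8.02% of named genes within the limits, 6.93% of all loci at 100 FPKM or more and 17.1% of loci at 1 FPKM or more. Their median log2 ratio was -0.16, with 4 above 0 and 13 below. Over all 75 loci of class IV at 100 FPKM or more it was -0.22, with 13 above 0 and 62 below, and the lower level of class IV as a whole was known from earlier results of these data. The lowest were Idh3b (-0.67), CG13887 (124 FPKM in zldZnF2 embryos and 175 FPKM in w1118 embryos) and Echs1 (-0.48), and the highest was Svil (0.92).

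Classes II and III held 7 genes (2.61%), against 2.07% of named genes within the limits, 2.12% of all loci at 100 FPKM or more and 10.1% of loci at 1 FPKM or more. Their median log2 ratio was 0.12, against -0.002 over the 23 loci of these classes at 100 FPKM or more. The values ran from COX7A at -0.30 to Svil, which is listed in classes III and IV. CG9775 was the most abundant of them, at 684 FPKM in zldZnF2 embryos and 509.9 FPKM in w1118 embryos. Its exons overlap another gene on the same strand, so its reads may be shared.

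Some of the genes lie side by side. In the annotation 49 genes were within 10 kb of another gene of the set, giving 26 pairs of nearest neighbours. Of these pairs 16 differed by under 0.2 in log2 ratio, with a median difference of 0.13. Pairs lying further apart were not counted, and the quartiles of the log2 ratio over all 268 genes were -0.17 and 0.12. Whether neighbours were more alike than other genes of the set was thus not tested. CG44242 and CG44243 (now Lipt1) lie next to each other on 2R with log2 ratios of -0.13 and -0.14. Other neighbours took opposite sides. BNIP3, a receptor of mitophagy, was at 337 FPKM in zldZnF2 embryos and 239 FPKM in w1118 embryos (log2 ratio 0.50), and its neighbour Pss, phosphatidylserine synthase, at 111 and 157 FPKM (-0.50). CG2852 (-1.07) lies near CG3732 (0.10) on the same strand. CG7603, now QIL1, a subunit of the MICOS complex of mitochondrial cristae, was at 229 FPKM in both genotypes, and the neighbouring UQCR-Q had a log2 ratio of -0.13.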

How the data were processed

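For 3 zldZnF2 and 3 w1118 samples the authors cleaned RNA-seq reads on the Galaxy platform, aligned them with RNA-STAR (build dm6), built transcripts in Cufflinks and ran Cuffdiff between the genotypes. The submitters' processing notes also name TopHat, without its role. Cufflinks was run at its defaults; the options of Cuffdiff for counting, strand and normalization are not given in the sources used here. Each locus of the deposited table has 1 FPKM for each genotype, which the authors computed over 3 replicates at once, so depth per sample is unknown. Columns of the authors' own comparison (fold change, test statistic, p-value, q-value and call) were not used.

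From the FPKM, ratios of zldZnF2 over w1118 were computed without a pseudocount. Samples were grouped by the genotype in their titles. Genes were matched by symbol and position to Ensembl release 115 (dm6) and to current names in RefSeq (Release 6); exons, transcript and protein length are those of the canonical transcript. Coordinates are 1-based. Decay classes were read from the lists in the study's supplement. Python 3.11.15, NumPy 2.4.6, pandas 2.3.3 and Matplotlib 3.10.9 were used, and counting by fold was tested on simulated data.

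The genes named were the 10 highest, the 6 with the highest and the 6 with the lowest ratio, the 2 on each side of each limit, genes within 10 kb of each other, the shortest and longest proteins, and genes with a name now. CG4911, CG9775 and CG13887 were named after their values were seen, and the role groups were formed then too. The genes and all lists were chosen with earlier results of these data known. Alternatives were a pseudocount of 1, centring, scaling, level limits of 50 and 200 FPKM, a fold limit of 2, single-gene loci and 2 settings chosen after seeing the data. Sequences were not used here.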

Additional observations from a re-analysis of the deposited data

How the results depend on the processing

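Of 25 alternative values for 7 results, 20 kept close to the reported value. Close meant under 0.1 in log2 ratio for medians and within a factor of 1.5 for counts and shares, so a change of sign within this limit counted as kept. A pseudocount of 1 could hardly move values of at least 100 FPKM, nor could centring on a median of -0.01. The median log2 ratio of the 268 genes ran from -0.07 (level limit of 50 FPKM, 534 genes) to 0.03 (level limit of 200 FPKM, 107 genes), so its sign depends on the setting. At a fold limit of 2 the counts were 0 higher and 3 lower genes, in place of 5 and 8 at 1.5-fold. Restricted to the 148 genes whose locus held 1 row, 3 genes were higher and 5 lower, and without genes whose exons overlap the opposite strand (164 remained) the counts were 4 and 6; these settings were chosen after seeing the data. The median log2 ratio of class IV genes was -0.31 at a level limit of 50 FPKM, in place of -0.16, where more genes enter.

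No paired analysis was possible because the table gives 1 value per genotype, and for the same reason leaving out a replicate was not possible. Shares of promoters with a motif, planned with their alternatives, were not run, since no sequences were used here. Loci on the X, Y and chromosome 4 and the depth per sample were not measurable here.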
